A study of Mus musculus with 6 samples.

Results

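RNA levels on 1 single-stimulus array of mProx24 cells were compared with those on the control array, gene by gene. mProx24 is a cell line of proximal tubular cells from the C57B6 mouse kidney. The array, called array A here, carries 2 labels that conflict. Its scanner file belongs to the sample labelled High glucose, while the same values stand in the deposited value table in the column of the sample labelled High FFAs (free fatty acids). On the log2 scale the values of array A differed from that column with a standard deviation (SD) of 2.87e-07 over probes, against an SD of 0.513 from the column labelled High glucose. Array B is the other array of this pair and carries the labels the other way round. Neither array was relabelled, and no statement is made on which stimulus array A received.

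The series holds 6 arrays, 1 for each of 6 conditions: array A, array B, Hypoxia, Triple stimuli, Triple stimuli + Rapamycin and Control. Array A, array B and Control were kept at 20% oxygen, and the other 3 arrays at 1%. Where the protocols apply, low oxygen lasted 12 h, palmitate (a saturated fatty acid) was given at 150 µM for 9 h, carried on 0.15% bovine serum albumin, and rapamycin (an inhibitor of the growth kinase complex mTORC1) was given at 0.4 µg/ml for 12 h ahead of palmitate. All cells grew in medium with 10% fetal calf serum, and the sources used here give no glucose concentration. Triple stimuli is described as 1% HG Pal, and its rapamycin counterpart adds an R. The short descriptions read 20% HG PBS for the scanner file of array A, 20% NG Pal for its value-table column and 20% NG PBS for Control, so which vehicle array A shared with Control depends on the label taken.

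A level is the processed signal of a probe, divided by the 75th percentile that its array shows over spots other than controls. A difference is the log2 level on array A minus that on control, so that 1 stands for a 2-fold higher level on array A. The scanner software marks spots well above background, and a gene counts as measured when its probe has this mark on both arrays. Of 34574 gene names on the arrays 16435 were measured (47.5%). With 1 array on each side no test was possible, no value has a replicate error, and the number of arrays limits the precision. A gene is called higher or lower when its level differed at least 2-fold, which describes these 2 arrays and not the conditions.

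The mark was on 43.1% of these spots on array A and 43.8% on control, and 0 were saturated. The differences of all measured genes had a median of -0.0058, an SD of 0.36 and quartiles of -0.18 and 0.18. Of these 16435 genes, 8061 lay above 0. For 94 probes printed in 2 to 10 copies, the SD of the difference between copies had a median of 0.064 and a highest value of 0.281. For 4401 genes with another measured probe, the value by the probe used minus the median of the others had an SD of 0.275 over genes. The error estimate that the scanner software attaches to each spot, carried over to the difference, had a median of 0.205. All 6 arrays lay on 1 slide, with array A and Control in the same row.

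In 6 genes among those called higher and 1 called lower, the control array alone stood apart, at least 2-fold from all 5 other arrays. A probe without a gene name, with the highest difference of all (5.13), and Zfp386 (4.50), a zinc finger gene, are 2 of them. Zfp386 had a level of 11.4 on array A and between 11.2 and 13.3 on the 4 other arrays with a stimulus, against 0.506 on Control. Its other 2 probes gave differences of 0.04 and 0.15. The others were Dus4l (2.49), Gm14410 (2.16), Gli3 (1.39) and Tent5b (1.38) on the higher side and Olfr25 (-1.02) on the lower. These genes were singled out after their values were seen, and their differences rest on the level of the control array. For Dus4l that holds only in part, as it had 3.11 on array A, 1.54 on array B and 0.553 on Control.

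Fatty acids that enter a cell are bound to coenzyme A and then oxidised in mitochondria and peroxisomes, built into membranes, or stored as triglyceride in lipid droplets. They are also ligands of the PPAR nuclear receptors, which raise transcription of genes for fatty acid handling. Proximal tubular cells depend on fatty acid oxidation for energy, and saturated fatty acids in excess are known to set off the integrated stress response, in which phosphorylated initiation factor eIF2 slows translation while the transcription factor ATF4 is made. This is background and not a result of these arrays.

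In all, 204 measured genes (1.24%) were at least 2-fold higher on array A than on control, and 96 (0.584%) were at least 2-fold lower. With another background correction (limma's normexp) the counts were 132 higher and 31 lower, and with genes well above background on 1 array added 276 higher and 161 lower. At 4-fold the counts were 21 higher and 3 lower. The genes nearest to the limit had differences of 1.00005 inside and 0.998 outside on the higher side, and of -1.00008 inside and -0.9996 outside on the lower side. The higher genes were found at all levels, from dim to bright, while the lower genes were mostly dim: among the 8218 brighter genes, with a mean level at or above the median, 85 were higher and 13 lower.

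**Figure D1:**
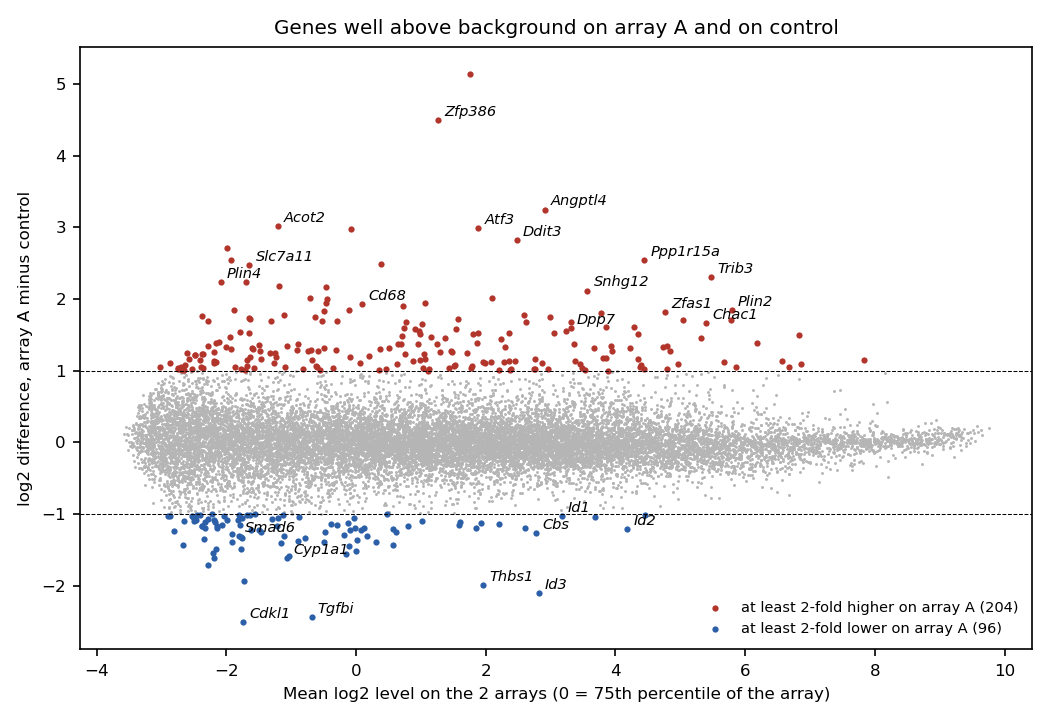
Difference between array A and control (log2, vertical) against the mean log2 level on both arrays (horizontal, 0 is the 75th percentile of an array) for the 16435 measured genes, 1 point a gene. The 204 genes at least 2-fold higher on array A (red) spread over the whole range of levels, and most of the 96 at least 2-fold lower (blue) lie in its dimmer part; Zfp386 stood apart on the control array.

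Of 17 measured targets of PPAR receptors, 7 were higher on array A (41.2%, against 1.24% of all measured genes) and 0 lower. Their median difference was 0.56. Angptl4, whose secreted product blocks lipoprotein lipase, had a level of 23.2 on array A and 2.44 on control, a 9.50-fold difference (3.25 on the log2 scale; probe on mm9 chromosome 17, 33911880 to 33911939). Pdk4, a kinase that shuts off pyruvate dehydrogenase and so spares glucose, had 5.01 and 1.68 (difference 1.58; chromosome 6, 5433441 to 5433500). Fabp3, a fatty acid binding protein gene, was dim, at 0.200 on array A and 0.0931 on control (1.10, or 0.46 with another background correction). The receptor genes themselves differed less: Ppara by 0.16, Ppard by 0.38 and Pparg by 0.46. Of the 24 genes listed, 7 were not measured on both arrays, among them the fatty acid binding genes Fabp1 and Fabp4.

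Acyl-CoA thioesterases split fatty acids from coenzyme A, and 2 of them were among the PPAR targets that were higher. Acot2, the mitochondrial enzyme, had a level of 1.23 on array A and 0.153 on control, 8.07-fold higher (difference 3.01; chromosome 12, 85334071 to 85334130). Acot1, the cytosolic enzyme, had 1.47 and 0.366, 4.02-fold higher (2.01; chromosome 12, 85358561 to 85358620). Both genes are close in sequence, and whether their probes cross-hybridise was not tested. The measured thioesterases Acot5, Acot7, Acot8, Acot9, Acot10 and Acot13 lay between -0.14 and 0.37, so the high levels were found in 2 of 8 measured members of the family. Of 16 measured genes of fatty acid uptake, activation and thioesters these 2 were higher (12.5%, against 1.24% of all measured genes) and 0 lower (median 0.10). The transporter gene Slc27a1 was at 0.93 and the acyl-CoA synthetase genes Acsl1, Acsl3, Acsl4 and Acsl5 at -0.13 to 0.23.

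Lipid droplets are coated by perilipins, and 3 of 12 measured droplet genes were higher and 0 lower (median 0.31). The share higher was 25%, against 1.24% of all measured genes. Plin2, the perilipin of most cells, had a level of 105 on array A and 29.2 on control (difference 1.85; chromosome 4, 86302847 to 86302906). Plin4 had 0.510 and 0.108 (2.23, chromosome 17, 56240055 to 56240114). It was dim on control, where the lowest well-above-background level was 0.0794, and the scanner's error estimate for its difference was 0.334. Hilpda, an inhibitor of the lipase ATGL, had 14.6 and 4.36 (1.75, chromosome 6, 29225127 to 29225186), with 1.92 by its other probe. Soat2, which esterifies cholesterol for storage, was well above background on array A only, at 0.434, and was at least 5.46-fold higher there. Its relative Soat1 was at 0.75. The lipase genes Pnpla2 at 0.01 and Lipe at -0.24, the lipase cofactor Abhd5 at 0.27 and the perilipin gene Plin3 at 0.36 stayed below 2-fold.

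The lists of fatty acid oxidation and of fatty acid synthesis each had 1 member past 2-fold, 3.70% and 5.88% of those measured. Over all measured genes 1.24% were higher and 0.584% lower, and 8061 of 16435 lay above 0. Of 27 measured oxidation genes, 1 was higher and 0 lower, at a median of -0.07, and 18 of the 27 lay below 0. The higher gene was Cpt1a, which encodes the carnitine transferase that admits long-chain fatty acids to mitochondria. Its level was 0.640 on array A and 0.280 on control (difference 1.19; chromosome 19, 3384060 to 3384119), and the difference was 0.77 with another background correction. Downstream enzymes of the mitochondrial spiral were at -0.42 (Acadm), -0.36 (Hadha) and -0.35 (Hadhb).

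Of 17 measured genes of fatty acid synthesis, elongation and desaturation, 1 was higher and 0 lower, at a median of -0.08. It was Elovl4, an elongase of very long chains, with 0.412 on array A and 0.168 on control (1.30, or 0.80 with the other background correction). Fasn, the fatty acid synthase, was at -0.29, Acaca at -0.36 and the desaturase gene Scd1 at 0.23. In triglyceride and phospholipid synthesis 1 of 16 was higher (6.25%, against 1.24% of all measured genes) and 0 lower, at a median of 0.01. Gpat3, an acyltransferase of the first step of triglyceride synthesis, had 9.60 and 4.71 (1.03; chromosome 5, 101328054 to 101328113), while the diacylglycerol acyltransferase genes Dgat1 and Dgat2 were at -0.03 and 0.04. Ceramide and sphingolipid genes had 0 of 18 past 2-fold and a median of 0.02, with Cers6, a ceramide synthase that prefers palmitoyl-CoA, at 0.86. Of 26 measured genes of cholesterol synthesis and uptake 0 passed 2-fold, the median was -0.21, and 18 lay below 0.

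Stress transcription factors and genes of eIF2 feedback had a median of 1.00 over 22 measured genes. Of these, 11 were higher (50%, against 1.24% of all measured genes) and 0 lower. This was the highest median of the lists fixed for this work, which were chosen with earlier results of these data known. Atf3, a repressor of the ATF family, had a level of 10.4 on array A and 1.31 on control, 7.92-fold higher (2.99; chromosome 1, 192994547 to 192994606). Ddit3, which encodes the stress factor CHOP, had 14.8 and 2.09, 7.10-fold higher (2.83; chromosome 10, 126732518 to 126732821). Ppp1r15a, whose product GADD34 directs dephosphorylation of eIF2 and so restores translation, had 52.6 and 9.05, 5.82-fold higher (2.54; chromosome 7, 52778320 to 52778379). Trib3, a pseudokinase that restrains ATF4 and the kinase AKT, had 98.4 and 20.0, 4.93-fold higher (2.30; chromosome 2, 152163161 to 152163220).

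Other higher members of the list were Gadd45a, a growth arrest gene (1.78), Chac1, which degrades glutathione (1.66), the stress protein gene Nupr1 (1.53), Cebpb (1.32), the growth factor gene Vegfa (1.11, and 1.24 by its other probe), the stress cytokine gene Gdf15 (1.09) and Atf5 (1.03). Atf4 itself had 399 on array A and 203 on control, a difference of 0.97 that its other probe gave as 0.96. Sesn2, a leucine sensor, was at 0.95 and Ddit4, an inhibitor of mTORC1, at 0.91. Cebpg was at 0.60, Jdp2 at 0.38 and Eif2s1, the subunit of eIF2 that is phosphorylated, at 0.17. The genes of the 4 kinases that phosphorylate eIF2 lay near 0: Eif2ak1 at -0.07, Eif2ak2 at -0.29, Eif2ak3 at 0.30 and Eif2ak4 at 0.00. Ppp1r15b, the constitutive partner of Ppp1r15a, had 0.782 on array A and 0.783 on control.

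**Figure D2:**
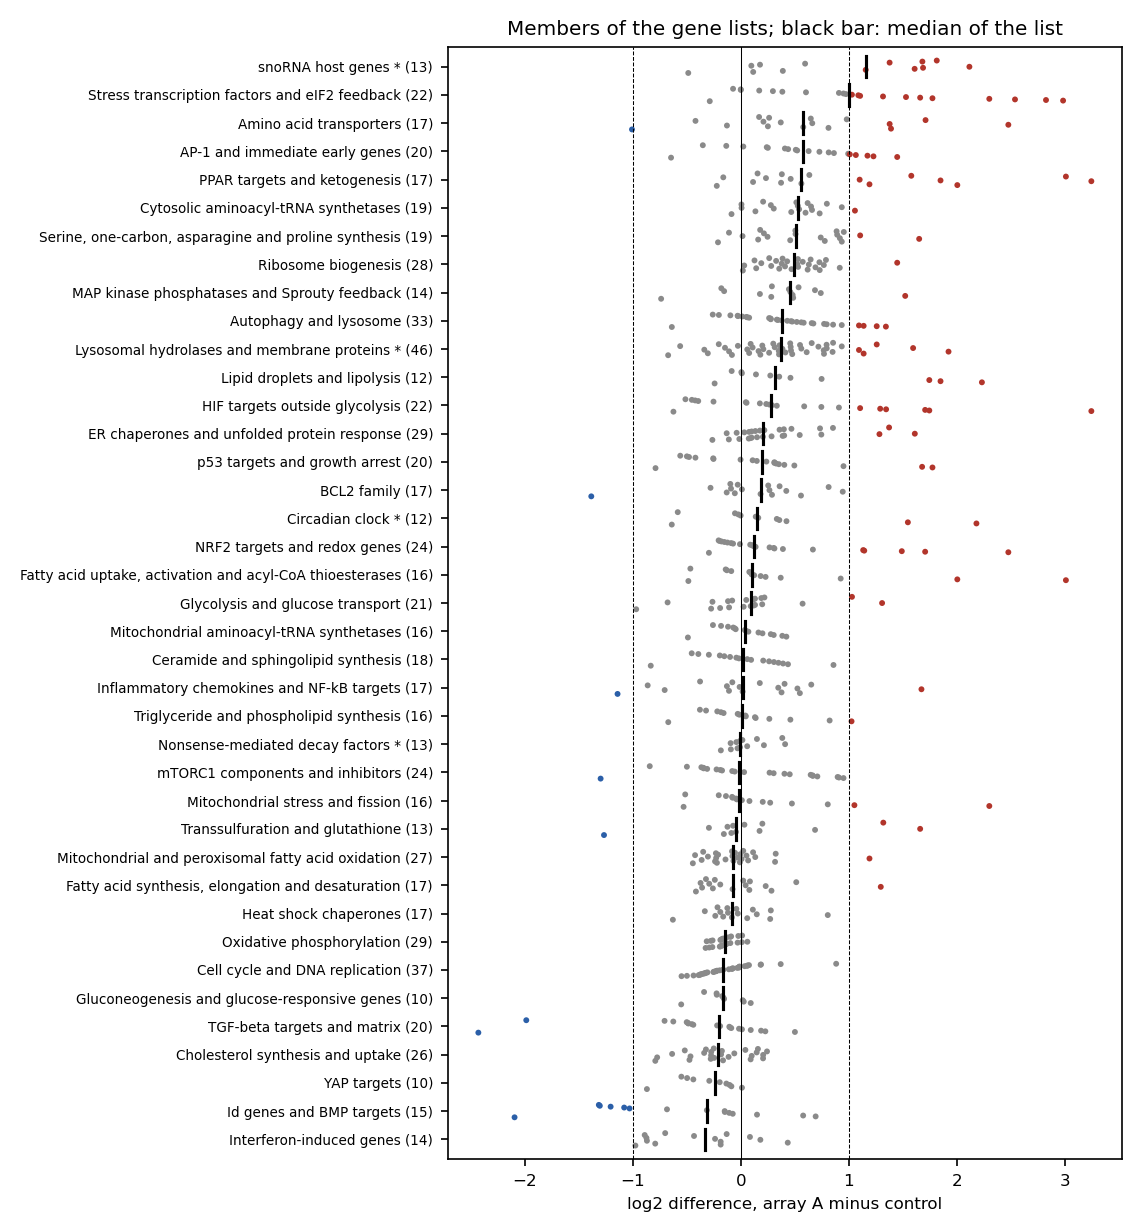
Difference between array A and control (log2, horizontal) of each measured member of each gene list with at least 10 measured, 1 point a gene, with the number measured in brackets. A black bar marks the median of a list, and red and blue points are at least 2-fold higher and lower on array A. Lists with an asterisk were chosen after values were seen, and the others with earlier results of these data known. The medians run from 1.16 for snoRNA host genes to -0.34 for interferon-induced genes.

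ATF4 and CHOP bind composite sites in the promoters of their targets, of which the amino acid response element with the letters TGATGCAA is the textbook form. It was searched on both strands of RefSeq promoters (GRCm38.p6, 250 bases before to 50 after the start), which were found for 9557 of the measured genes. It was in 6 of 172 promoters of higher genes (3.49%), 0 of 95 of lower genes and 4 of 27 of the stress list (14.8%), against 0.622% of all 12220 promoters. None of the motifs searched contains another in its fixed letters, though free bases (N) of the longer ones can. The 6 promoters belong to Atf3, Slc7a11, Chac1, Herpud1, Nupr1 and Angptl8, a secreted lipase inhibitor gene with a difference of 1.47 that was named for this match. For each, 100 bases on the strand of the gene are shown 5′ to 3′, to let the surroundings of the element be read, with the element in capitals in either orientation.
Atf3, chr1:191183390-191183489, minus strand: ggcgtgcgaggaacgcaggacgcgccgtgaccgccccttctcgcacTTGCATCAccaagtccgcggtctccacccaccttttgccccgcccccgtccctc
Slc7a11, chr3:50443626-50443725, minus strand: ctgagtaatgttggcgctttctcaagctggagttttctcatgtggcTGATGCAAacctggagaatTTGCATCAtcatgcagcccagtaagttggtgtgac
Chac1, chr2:119351003-119351102, plus strand: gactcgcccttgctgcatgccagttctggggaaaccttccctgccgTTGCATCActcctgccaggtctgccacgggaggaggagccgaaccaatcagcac
Herpud1, chr8:94386271-94386370, plus strand: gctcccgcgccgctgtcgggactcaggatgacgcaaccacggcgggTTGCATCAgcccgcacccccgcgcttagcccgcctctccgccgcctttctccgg
Nupr1, chr7:126625527-126625626, minus strand: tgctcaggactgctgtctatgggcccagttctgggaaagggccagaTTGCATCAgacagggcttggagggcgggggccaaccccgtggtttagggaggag
Angptl8, chr9:21835334-21835433, plus strand: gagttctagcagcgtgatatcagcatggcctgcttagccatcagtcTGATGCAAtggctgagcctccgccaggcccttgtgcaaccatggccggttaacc
Slc7a11 was the one with the element 2 times, in opposite orientations, at -66 and -47 from the start site. In Atf3 and Nupr1 it began at -110, in Herpud1 at -112, in Angptl8 at -130 and in Chac1 at -193. Ddit3, Ppp1r15a and Trib3 had no match to these letters in the windows searched, and a match is a description and not evidence of binding.

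Other motifs were searched in the same windows. The cAMP response element TGACGTCA was in 3.49% of promoters of higher genes and 3.13% of all promoters, and the antioxidant response element TGACNNNGC in 14.5% and 14.2%. GGCGCC, a SMAD-binding element, was in 14.7% of promoters of lower genes and 20.7% of all. The direct repeat of AGGTCA with 1 base between, bound by PPAR receptors, was in 0 promoters of higher genes and 0.0327% of all in this strict form.

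ATF4 drives genes that import and make amino acids, and 4 of 17 measured amino acid transporters were higher and 1 lower (median 0.58). These are 23.5% and 5.88%, against 1.24% and 0.584% of all measured genes. Slc7a11, the cystine importer, had a level of 0.756 on array A and 0.136 on control, 5.57-fold higher (2.48; chromosome 3, 50169700 to 50169759), and its partner Slc3a2 had 118 and 44.9 (1.39). The glycine transporter gene Slc6a9 had 59.8 and 18.3 (1.71, and 1.80 by its other probe), and the glutamine transporter gene Slc38a7 was at 1.38. The lower member was Slc6a19, the neutral amino acid transporter of the proximal tubule brush border, at -1.01, or -0.62 with the other background correction.

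Amino acid synthesis and charging of transfer RNA in the cytosol had medians of the same size. Of their measured members 10.5% and 5.26% were higher, against 1.24% of all measured genes. Of 19 measured genes of serine, one-carbon, asparagine and proline synthesis 2 were higher and 0 lower (median 0.51), and 17 lay above 0. These 2 were Aldh1l2, a mitochondrial folate enzyme (1.65), and the alanine transaminase gene Gpt2 (1.11), ahead of Psph (0.95), Pycr1 (0.94), Shmt2 (0.92) and Asns (0.89). Of 19 cytosolic aminoacyl-tRNA synthetases 18 lay above 0, with a median of 0.53, and 1 passed 2-fold, the tryptophan enzyme Wars1 (1.06, and 0.95 by its other probe). Of 16 mitochondrial synthetases 9 lay above 0 and 0 passed 2-fold, with a median of 0.04. The pathway from methionine to cysteine held 1 member on each side: Cth, its last enzyme, had 2.25 on array A and 0.901 on control (1.32), and Cbs, the enzyme before it, had 4.43 on array A and was 2.41-fold lower than on control (-1.27; chromosome 17, 31749593 to 31749652).

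The endoplasmic reticulum (ER) answers unfolded proteins through ATF6, XBP1 and the kinase PERK. Of 29 measured genes of this response, 3 were higher (10.3%, against 1.24% of all measured genes) and 0 lower (median 0.21). Herpud1, a membrane protein of ER-associated degradation, had a level of 25.4 on array A and 8.30 on control (1.61; chromosome 8, 96919117 to 96919176). Dnajb9, an ER co-chaperone, had 2.61 and 1.01 (1.37, and 1.64 by its other probe), and Atf6 had 0.962 and 0.395 (1.28, or 0.997 and so no longer 2-fold with the other background correction). The abundant chaperone genes were nearer to 0, with Hspa5 at 0.73, Hsp90b1 at 0.10, Calr at 0.09, Canx at 0.15, Pdia4 at 0.10 and Pdia6 at -0.11. The ER stress element, CCAAT and CCACG set 9 bases apart, was in 9 of the 26 promoters of this list (34.6%), against 0.139% of all promoters and 0 of higher genes. Members with the element had a median difference of 0.15 (9 genes, -0.11 to 0.73) and those without it 0.29 (16 genes, -0.26 to 1.61).

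Genes of redox defence under the factor NRF2 had 5 of 24 higher (20.8%, against 1.24% of all measured genes) and 0 lower, at a median of 0.12. Hmox1, the heme oxygenase, had 99.1 on array A and 30.3 on control (1.71, and 1.65 by its other probe; chromosome 8, 77624207 to 77624266). The other 4 were Slc7a11, the metallothionein genes Mt2 (1.49) and Mt1 (1.14), whose sequences are alike, and the glutathione transferase gene Gsta2 (1.13). The standard targets Nqo1 at 0.27, Gclc at -0.30, Gclm at -0.07, Txnrd1 at 0.39 and Srxn1 at 0.31 stayed below 2-fold.

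Immediate early genes are transcription factors that growth factors and stress raise within minutes to hours. Of 20 measured, 5 were higher (25%, against 1.24% of all measured genes) and 0 lower (median 0.58). The 5 were Myc (1.45), Klf4 (1.23), Jun (1.17), Klf9 (1.07) and the orphan receptor gene Nr4a1 (1.01, which fell short of 2-fold in 3 of the alternatives tried). Jun had 21.1 on array A and 9.37 on control, and Myc 7.77 and 2.85. Beside them, Dusp4, a phosphatase of MAP kinases, had 6.26 and 2.18 (1.52), Areg, a ligand of the EGF receptor, 1.24 and 0.386 (1.69), and Ptgs2, the inducible cyclooxygenase, 3.05 and 0.956 (1.67). Of 17 measured chemokines and NF-kB targets Ptgs2 was the only one higher and the chemokine gene Cxcl5 the only one lower, at 3.11 on array A and 6.87 on control (-1.14).

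All 28 measured genes of ribosome biogenesis lay above 0, with a median of 0.50, beside 8061 of all 16435 measured genes. Of the 28, only Myc passed 2-fold (3.57%, against 1.24% of all measured genes). Myc is also among the immediate early genes. Behind it were Gnl3 (0.92), Wdr43 (0.79), Ppan (0.77) and Nop2 (0.73).

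Small nucleolar RNAs, which guide modification of ribosomal RNA, are cut from the introns of host genes, many of which make spliced transcripts with no long reading frame. A list of such hosts was drawn up after values had been seen. Of its 13 measured members 7 were higher (53.85%, against 1.24% of all measured genes) and 0 lower and the median was 1.16. Snhg12 had a level of 24.6 on array A and 5.68 on control, 4.34-fold higher (2.12; chromosome 4, 131866864 to 131866922). Zfas1 had 50.8 and 14.4 (1.82), Snhg5 0.724 and 0.225 (1.69), and Snhg1 11.0 and 3.43 (1.68; chromosome 19, 8798913 to 8798972). Snhg16 was at 1.61, Snhg17 at 1.38 and Gas5 at 1.16, but the other probes disagreed for 2 of these, with 0.52 for Snhg16 and 0.08 and 0.42 for Gas5. Rack1, a host that encodes a ribosomal protein partner, was at 0.11, and Snhg3 at 0.10. Transcripts of this kind are degraded by nonsense-mediated decay in a way that needs translation. Of 13 measured factors of that pathway, also listed after values were seen, 0 passed 2-fold, with a median of -0.0075 and a range of -0.18 (Magoh) to 0.41 (Smg1). With 1.24% of all measured genes higher and 0.584% lower, 0 of 13 does not set these factors apart. Decay itself was not measured, and its part in the host levels was not tested.

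Lysosomes break down proteins, lipids and glycans, and their genes are under the factors TFEB and TFE3. Of 33 measured genes of autophagy and lysosomes 4 were higher (12.1%, against 1.24% of all measured genes) and 0 lower and the median was 0.38. Sqstm1, the autophagy adaptor p62, had a level of 24.3 on array A and 9.59 on control (1.34; chromosome 11, 50015985 to 50016044). Hexa, a hexosaminidase, had 3.79 and 1.58 (1.26), Ctsa, a carboxypeptidase, 142 and 64.3 (1.14, and 1.63 by its other probe), and Neu1, the sialidase bound to Ctsa, 45.6 and 21.4 (1.09). The core autophagy genes lay closer to 0, with Ulk1 at -0.64, Becn1 at -0.03, Atg5 at 0.05, Map1lc3b at 0.38 and Gabarapl1 at -0.03, as did Tfeb at -0.26 and Tfe3 at 0.06.

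A longer list of lysosomal enzymes and membrane proteins, chosen after values were seen and sharing members with the first, had 37 of 46 above 0 and a median of 0.37. It added Cd68, a lysosomal membrane protein best known from macrophages, with 2.07 on array A and 0.545 on control (1.92; chromosome 11, 69477775 to 69477834), and Dpp7, a dipeptidase, with 17.3 and 5.71 (1.60). In both the level on array A was also above the levels on the other 4 arrays, which were 0.567 to 1.43 for Cd68 and 4.27 to 9.05 for Dpp7. The E-box CACGTG was in 10 of the 32 promoters of the first list (31.2%), against 13.4% of promoters of higher genes and 9.87% of all. The 10 genes with it, among them Ctsa and Mcoln1, had a median of 0.51, and the 15 without it 0.33.

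Targets of the hypoxia factor HIF outside glycolysis had 6 of 22 higher and 0 lower, at a median of 0.28, although array A was at 20% oxygen. The share higher was 27.3%, against 1.24% of all measured genes. Of the 6, Angptl4, Hilpda, Hmox1 and Vegfa, are also in the lists above. The other 2 were Ndrg1, with 44.3 on array A and 17.4 on control (1.35), and the mitochondrial adenylate kinase gene Ak4, with 1.26 and 0.516 (1.29). Other standard targets were below 2-fold, with Car9 at 0.05, Bnip3 at 0.27, Kdm3a at 0.18, P4ha1 at -0.51 and Ankrd37 at -0.39. Over brighter genes alone the median of the list was 0.91. In glycolysis 2 of 21 were higher (9.52%, against 1.24% of all measured genes) and 0 lower, with a median of 0.09. The 2 were the enolase gene Eno2 (1.31) and the hexokinase gene Hk2 (1.03). Slc2a1, the basal glucose transporter, was at 0.13.

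In the list of gluconeogenesis and glucose-responsive genes 0 of 10 measured members passed 2-fold, with a median of -0.17. Of its members known to respond to glucose through the factor MondoA, Txnip was at -0.22 and Arrdc4 at -0.22. In the circadian list, chosen after values were seen, 2 of 12 were higher, Ciart, a repressor of the clock (2.18), and Nfil3 (1.55), while Per1 at -0.00, Nr1d1 at -0.05 and Dbp at -0.58 were not.

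On the lower side the Id genes and BMP targets had 6 of 15 measured members lower on array A and 0 higher, with a median of -0.31. The share lower was 40%, against 0.584% of all measured genes. Id proteins bind and inactivate basic helix-loop-helix factors, and bone morphogenetic proteins (BMP) raise them through SMAD1 and SMAD5. Id3 had a level of 3.41 on array A and 14.6 on control, 4.28-fold lower (-2.10; chromosome 4, 135700075 to 135700249). Id2 had 11.9 and 27.5 (-1.21; chromosome 12, 25778904 to 25778963), and Id1 6.31 and 12.9 (-1.03; chromosome 2, 152563083 to 152563142). The 3 Id genes lay on the same side, in the order Id3, Id2, Id1.

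Smad6, an inhibitor of BMP signalling and one of its targets, had 0.182 on array A and 0.450 on control (-1.31). The Notch targets Hes1 and Hey1 were at -1.32 and -1.08. With another background correction Smad6 was at -0.74, Hes1 at -0.83, Hey1 at -0.61 and Id1 at -0.98, so these dim genes and Id1 no longer passed 2-fold, whereas Id2 and Id3 did. Atoh8, a BMP target, was well above background on control only, at 0.497. It was 4.56-fold lower on array A, by a level of 0.109 there that lacked the mark. The ligand genes were on the other side of 0, Bmp4 at 0.69, Bmp6 at 0.58 and Bmp7 at 0.15, and the receptor genes Bmpr1a and Bmpr2 were at -0.68 and -0.11. The signal transducer genes Smad1 and Smad5 were at -0.07 and -0.15, and the inhibitor genes Smad7 and Nog at -0.15 and -0.31. Over brighter genes alone the median of the list was -0.68.

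Of 20 measured targets of TGF-beta and matrix genes 2 were lower (10%, against 0.584% of all measured genes) and 0 higher and the median was -0.21. Tgfbi, a secreted matrix protein gene, had 0.268 on array A and 1.44 on control, 5.39-fold lower (-2.43; chromosome 13, 56740460 to 56740519). Thbs1, thrombospondin 1, which activates latent TGF-beta, had 1.96 and 7.76, 3.96-fold lower (-1.99; chromosome 2, 117952585 to 117952644). Other targets were at -0.44 (Ccn2), -0.02 (Fn1) and 0.50 (Col1a2). Inhbb, a subunit of the ligand activin B, was at -1.45 and Wnt5b, a Wnt ligand, at -1.38.

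The gene with the lowest difference was Cdkl1, a kinase of the cyclin-dependent family, with 0.126 on array A and 0.712 on control (-2.50). Cyp1a1, the cytochrome induced by the aryl hydrocarbon receptor, had 0.274 and 0.837 (-1.61), and the receptor gene Ahr was at -0.67 by 1 probe and 0.85 by another. Ddit4l, an inhibitor of mTORC1, had 0.718 and 1.77 (-1.30) and Bmf, a BH3-only member of the BCL2 family, 0.164 and 0.429 (-1.39, or -0.81 with the other background correction). Among 20 measured targets of p53, Gadd45a and the kinase gene Plk3 (1.68) were higher (10%, against 1.24% of all measured genes) and 0 lower, at a median of 0.19. The mitochondrial protease gene Lonp1 was at 1.05. In several broad lists 0 members passed 2-fold: the medians were -0.17 over 37 genes of the cell cycle, -0.15 over 29 of oxidative phosphorylation, of which 26 lay below 0, and -0.34 over 14 interferon-induced genes, of which 11 lay below 0. The same held for 17 heat shock chaperones (median -0.08) and 10 YAP targets (median -0.24). With 1.24% of all measured genes higher and 0.584% lower, 0 members in lists of this size does not set them apart.

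Markers of the labelled cell type were present in part. Of 20 genes of the proximal tubule 9 were well above background on array A and 8 on control, and their summed level was 27.2 on array A and 36.9 on control. Pax8 had 10.4 and 9.05, Lrp2, the endocytic receptor megalin, 7.20 and 11.5 (-0.68), and Aqp1, the water channel, 4.01 and 9.18 (-1.19, chromosome 6, 55298480 to 55298539). Aqp1 was the only measured proximal tubule marker past 2-fold. Slc34a1, Slc5a2, Slc22a6 and Hnf4a, which define the differentiated tubule, were not well above background on either array. Of 11 epithelial markers 6 were well above background on array A and 7 on control, with summed levels of 249.5 and 306.9. Of 7 leukocyte markers 3 were on both arrays, with sums of 12.4 and 9.89. Most of each sum was Itgam, with 8.98 on array A and 8.05 on control, and Cd3e had 1.23 and 1.21. Cd68 was higher on array A, and Ptprc, Adgre1 and Lyz2 were not well above background. Markers of podocytes, collecting duct, loop and distal tubule, and fibroblasts each summed to less than 1 on both arrays, and those of endothelium to 14.0 on array A and 15.2 on control. Their part in the differences was not tested.

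Each of the 204 higher genes was set beside array B, the other single-stimulus array at 20% oxygen, as a description, since the level on array A chose the genes. The level on array A was above that on array B in 198 of the 204 and at least 2-fold above it in 164. Of the 96 lower genes 93 were below array B and 71 at least 2-fold below. The same shares over all measured genes were not counted, so these counts do not show how far array A differed from array B. Angptl4 had 3.74 on array B, Acot2 0.146, Atf3 1.51, Ddit3 1.80, Snhg12 5.81 and Plin2 35.4, against 2.44, 0.153, 1.31, 2.09, 5.68 and 29.2 on control. Id3 had 19.6 and Id1 18.9 there, above their levels on control.

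The same genes were read on the 3 arrays at 1% oxygen. In the order Hypoxia, Triple stimuli, Triple stimuli + Rapamycin, Atf3 had 1.98, 16.6 and 10.4 and Angptl4 1.85, 18.4 and 16.1, so both were low in Hypoxia and high on the other 2. Ddit3, at 8.49, 16.2 and 11.2, and Hilpda, at 16, 33.7 and 19.1, were above control in Hypoxia as well. Id3 had 15.7, 4.78 and 5.85, and Thbs1 6.31, 2.26 and 2.29, near control in Hypoxia and low on the other 2. Plin4 had 0.141, 0.185 and 0.165, below the 0.510 of array A on all 3.

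**Figure D3:**
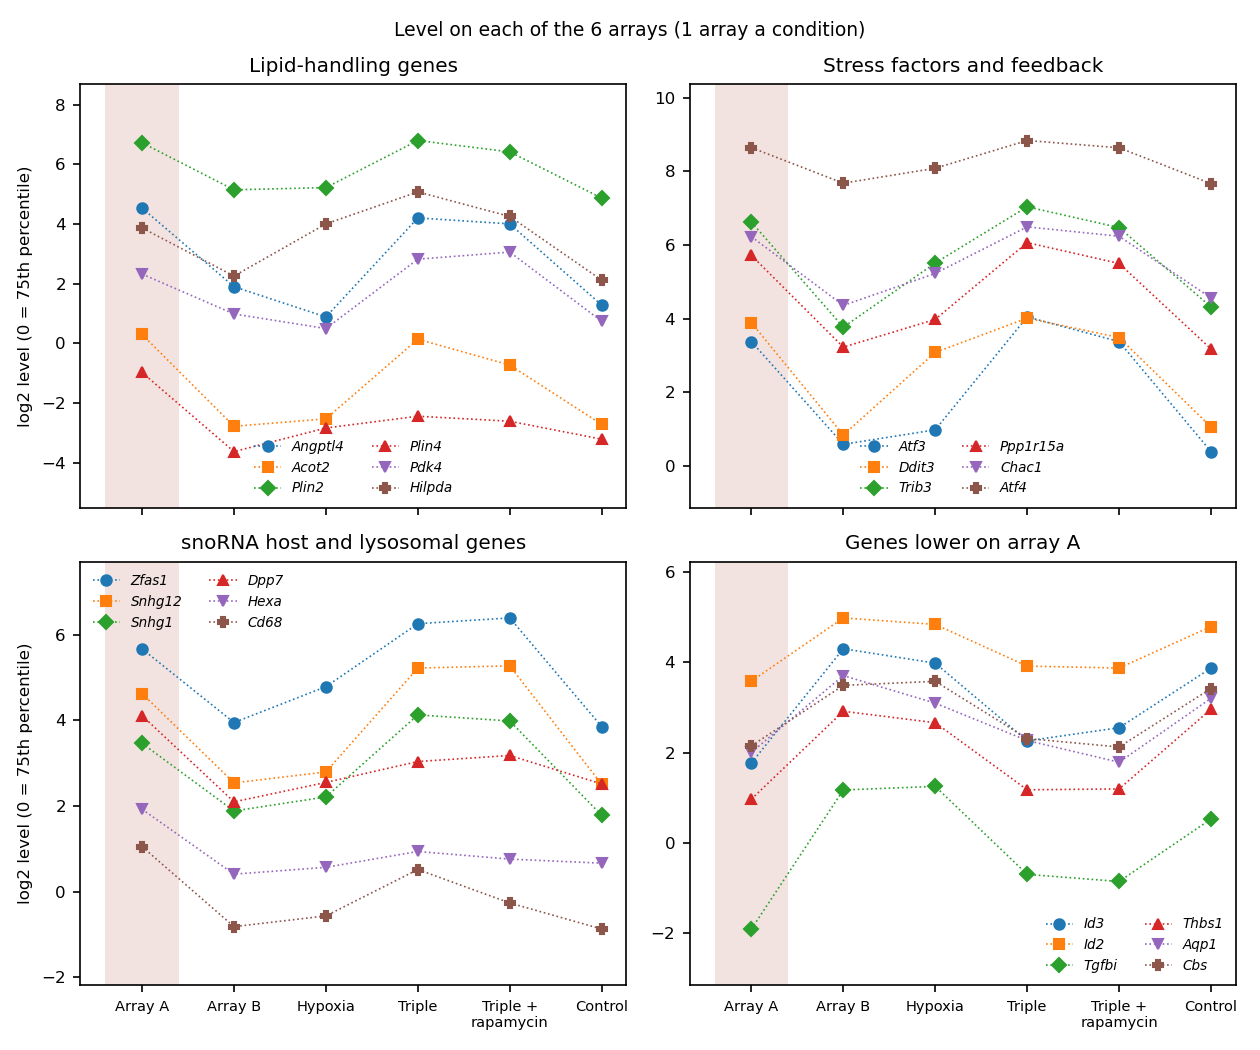
Log2 level (vertical, 0 is the 75th percentile of an array) on each of the 6 arrays, 1 array a condition, for 24 named genes in 4 groups; array A is shaded, control is on the right, and dotted lines join the points of a gene only to guide the eye. Angptl4, Acot2, Plin4, Dpp7, Hexa and Cd68 were highest on array A of the 6 arrays, and Id3, Id2, Tgfbi and Thbs1 were lowest there.

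In 7 of the higher and 7 of the lower genes array A alone stood apart, at least 2-fold from all 5 other arrays. On the higher side these were the proton channel gene Hvcn1 (2.24, and 2.25 by its other probe), Plin4, Uap1l1, the prostaglandin D synthase gene Ptgds (1.72), the lysosomal glycoprotein gene Creg1 (1.34), Elovl4 and Trnp1. On the lower side they were Tgfbi, Nrn1 (-1.39), Myom3, Pbp2, Smtnl2, the chemokine scavenger gene Ackr3 (-1.01) and a transcript without a symbol. They were singled out after their values were seen. Creg1 had other probes at 1.25 and 1.81.

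Genes with more than 1 measured probe allowed a comparison of probes that read the same labelled RNA on the same arrays. The same shares over all 4401 genes with another probe were not counted, so the counts below are a description. Of 49 higher genes with another probe all 49 had a median of the other probes above 0. In 27 of them it passed 2-fold again, and over the 49 it had a median of 1.02, against 1.17 by the probe used. Of 14 lower genes 13 were below 0 and 6 at least 2-fold lower, with a median of -0.61 against -1.16. The probe used was chosen for its brightness over the 6 arrays, and the genes by its difference, so a smaller value by the others is a property of the choice as well. Besides Zfp386 and Gas5, Scube3 (-1.49, and -0.12 by its other probe), Ggt6 (-1.16 and 0.16) and C8g (-1.16 and -0.04) were clear cases of disagreement, named after their values were seen.

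**Figure D4:**
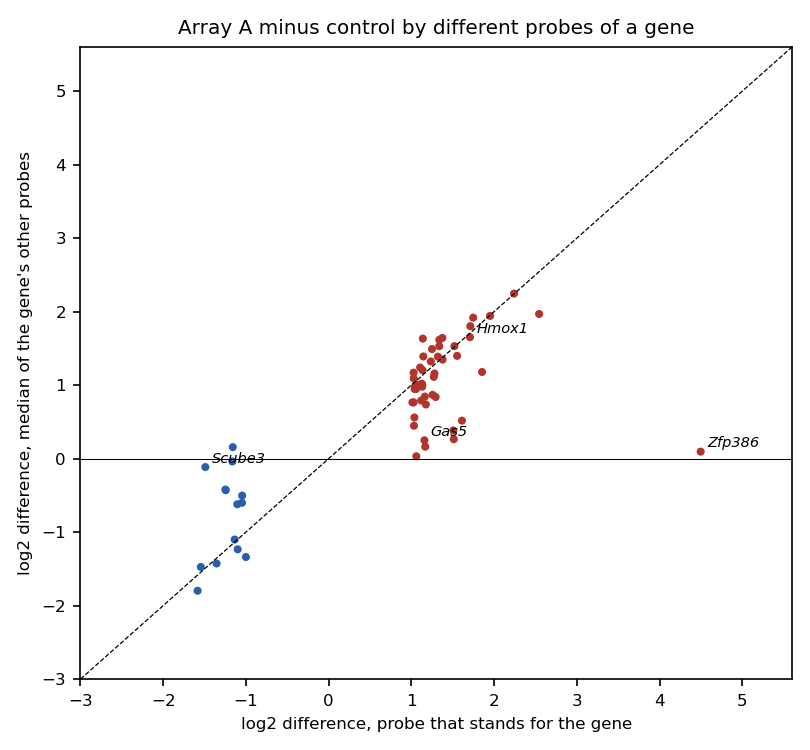
Difference between array A and control (log2) by the probe that stands for the gene (horizontal) and the median of its other measured probes (vertical), for the 49 higher (red) and 14 lower (blue) genes with another probe. Points on the dashed line have equal values, all 49 red points lie above 0, and Zfp386 lies far below the line.

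Some genes were well above background on 1 of the 2 arrays, 521 on array A only and 765 on control only. The lowest well-above-background level was 0.0831 on array A and 0.0794 on control. Dim sides below it were raised to it, after which 72 genes were at least 2-fold higher on array A and 65 at least 2-fold lower. The highest bounds were at least 8.53-fold for Ccdc24 (0.677 on array A and 0.0402 on control), 6.11-fold for Chst2, a sulfotransferase gene, 5.04-fold for Serpinb9c and 4.67-fold for Lce1i, beside that of Soat2. On the lower side they were at least 2.93-fold for Cdon, a co-receptor of Hedgehog, 2.90-fold for Vmn1r34, 2.74-fold for Gucy2g and 2.71-fold for Cdh20. Atoh8 came before them, but its level on array A was not raised, so its value is not a bound. Gpnmb, a lysosomal glycoprotein gene, was at least 2.14-fold higher, and the glucose transporter gene Slc2a2 at least 2.06-fold lower.

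Further genes with high differences were Lims2 (2.97), a focal adhesion gene, Lce1g (2.72), Tmem179 (2.54), Creb5 (2.02), a factor of the CREB family, Angptl6 (2.02), the chromatin gene Hmga2 (1.95, and 1.94 by its other probe), Stbd1 (1.90), which binds glycogen, Fam171b (1.85) and Myom2 (1.84). Lce1g was dim, at 0.648 on array A and 0.0987 on control. Further low ones were Tafa5 (-1.94), Pcdh18 (-1.70), Trabd2b (-1.58), which degrades Wnt, Tmem145 (-1.55), Il5ra (-1.52), Cyp2s1 (-1.48), the platelet chemokine gene Ppbp (-1.43), Fry (-1.42), Kctd12 (-1.40), Prrx2 (-1.37), Crispld2 (-1.36) and Hsd3b4 (-1.31). Of these, Pcdh18, Tmem145, Cyp2s1, Fry, Kctd12, Prrx2 and Hsd3b4 were below 2-fold with the other background correction. Over 6 bands of spot rows 0.96% to 1.52% of genes were higher and 0.50% to 0.65% lower, and the part of spot position in the counts was not tested.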

How the data were processed

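Cy3-labelled RNA was read on single-colour Agilent arrays. Per the file headers, and also the submitters' notes on processing, Agilent Feature Extraction 10.7.3.1 gave each spot a background-subtracted, detrended linear intensity with no scaling between arrays. The deposited value table holds a linear ratio per probe, which its values show to be signal over a percentile of the array (column medians 0.0535 for array A and 0.0505 for control). Both units and the other marks were used as deposited by the authors; log2 levels were computed here.

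Log2 processed signal minus the log2 75th percentile was averaged over spots of a probe. Of 55681 probes, 323 marked as outliers were left out, and the probe brightest on average over the 6 arrays stood for its gene. Symbols were matched to RefSeq for 22173 names; positions are on mm9, and no exon annotation of that build was used. With 1 array a condition nothing was tested.

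Members and lists were chosen with earlier results of these data known. Named were the 25 highest and 25 lowest measured genes with a usual symbol, in each of 38 lists every member past 2-fold and the 3 with the largest difference, all stress and Id list members, markers and up to 5 bounds a side; not every list member so chosen is printed, and other genes were chosen after their values were seen. "Another background correction" is limma 3.58.1 normexp (offset 50). Scripts were tested on simulated data.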

Additional observations from a re-analysis of the deposited data

How the results depend on the processing

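The count of 204 higher genes was 132 with normexp background correction and 85 over the 8218 brighter genes. The count of 96 lower genes was 31 with normexp, 13 over brighter genes and 161 with genes well above background on 1 array added. The other 6 settings for lower genes and 7 for higher genes stayed within 1.5 times, with 91 to 98 lower and 188 to 276 higher. Quantile normalization kept 188 of the 204 and 92 of the 96 genes. Of 342 list medians recomputed under 9 alternatives, 337 moved by less than the highest SD between spots (0.281). Many of these medians are themselves smaller than 0.281 in size, so for those the limit is wide and says little on how stable they are. The median of Id genes and BMP targets was -0.68 over brighter genes and with genes on 1 array added, that of mTORC1 components and inhibitors 0.30 over brighter genes against -0.01, and that of HIF targets outside glycolysis 0.91. The 7 aryl hydrocarbon receptor genes reversed to 0.14 with the mean over probes, against -0.16, where the probes of Ahr disagree. Of 111 named genes past 2-fold 0 reversed, and normexp left 91 past it. The cause of the smaller counts under normexp was not tested. Brighter genes are fewer by construction. No paired analysis was possible because each condition has 1 array and nothing was tested. No condition was replicated, so differences between cultures, labelling reactions and conditions cannot be told apart.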
